A study of Sus scrofa with 6 samples.

Results

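The genes described here encode heat shock proteins, their J protein partners, and the chaperones and disulfide isomerases of the endoplasmic reticulum (ER), with XBP1, ATF4 and DDIT3, transcription factors of the stress responses that control many of them. Members were chosen by name alone, from the single gene symbol that the array's annotation gave a probe set: HSP genes of the A, B, D, E and H families, HSP90 genes, DNAJ genes of the A, B and C families, PDIA genes, and CALR, CANX, HYOU1, SERPINH1, P4HB, XBP1, ATF4 and DDIT3. They numbered 69 genes, measured by 70 probe sets, of 10875 named genes and 27558 probe sets in all. Only HSPA8 had more than 1 probe set, and it is given by the one of higher mean level. HSP90AA1, HSP90B1, P4HB, DNAJC3 and HSPA1L were not among the genes with a single symbol and are not analysed here. The rule also admitted HSPBAP1, a protein that binds a small heat shock protein and is not a chaperone by name. The gene annotated as DNAJB7 is DNAJB6 in the current RefSeq table under the same Entrez number.

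RNA came from primary cultures of mesenchymal stem cells, which grow from marrow as adherent stroma, of female American Yorkshire pigs aged 4 months. Marrow was taken from the mandibular symphysis at the front of the jaw in 3 cultures and from the tibia in the other 3, all at passage 0, with no treatment or genetic change named for either group. The growth protocol isolates the cells by plating the whole aspirate in flasks and names no sort, so other cells that attach could remain. According to the design text, 3 pigs gave marrow of both kinds. The labels call the cultures biological replicates but do not say which pig each came from, so p-values measure only the spread between these cultures. The comparison asks whether gene expression in these stromal cells depends on the bone they came from.

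Chaperones bind unfolded proteins and help them reach or keep their shape. HSP70 proteins do so in cycles of ATP use that J proteins start, HSP90 proteins act on partly folded clients, and small heat shock proteins hold unfolding proteins without ATP. In the ER, HSPA5 (BiP), the lectins calreticulin and calnexin and the disulfide isomerases fold secreted proteins, and overload there starts the unfolded protein response, which acts through XBP1, ATF4 and ATF6. Stromal cells that make bone matrix secrete much collagen, and SERPINH1 (HSP47) is the chaperone dedicated to it.

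Arrays did not all follow their labels on genes of position. The craniofacial homeobox gene ALX1 read 8.08, 3.86 and 7.44 on the arrays labelled mandibular 1, 2 and 3, and 3.90, 3.54 and 7.97 on those labelled tibial 1, 2 and 3. HOXA7, a trunk and limb gene, measured 5.26, 8.40 and 5.23, and 8.01, 7.92 and 5.89. The arrays labelled mandibular 2 and tibial 3 thus lay with those of the other site. Every comparison below uses the labels as given, and values without these 2 arrays are added for the members with the larger differences. The 6 arrays had medians from 5.63 to 5.71, and precision is limited by their number. Lower quartiles lay between 3.86 and 3.94, and 7 members had a mean level under 5. The files hold no detection measure, so levels under 5 are not shown to be above background. The stromal genes COL1A1 (13.24 to 13.49), THY1 (10.50 to 10.70) and PDGFRB (10.45 to 11.15) were far above those quartiles on every array.

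None of the 69 members differed between the labelled sites after adjustment. The limma fit called 0 of 69 at an adjusted p under 0.05, against 0 of 27558 probe sets (0.0%), and the adjusted p was 0.9995 for each. At an unadjusted p under 0.05 there was 1 member, DNAJC18, or 1.45% of members against 3.03% of all probe sets (1.35% higher in mandibular and 1.69% higher in tibial cultures). The values of the sites did not overlap for 3 members (4.35%, against 6.92% of all probe sets): HSPA12A was higher in mandibular cultures, as were 3.35% of probe sets, and DNAJB8 and DNAJC18 in tibial cultures, as were 3.57%. Both shares were near or below the background. The mean was higher in mandibular cultures for 46 of 69 members, with a median difference, mandibular minus tibial, of 0.06, where 51.3% of all named genes were higher and the median was 0.01.

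The intervals show how large a difference these arrays could have hidden. For 38 members the 95% interval of the difference lay within 0.5 log2 units of 0, and for 63 it lay within 1. The half-width had a median of 0.36 and reached 3.43 for HSPA2, the most variable member. The absolute difference was above 0.5 for only 3 members of the 69, HSPA4L, HSPB3 and HSPB8, and each of these had an interval that included 0.

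**Figure D1:**
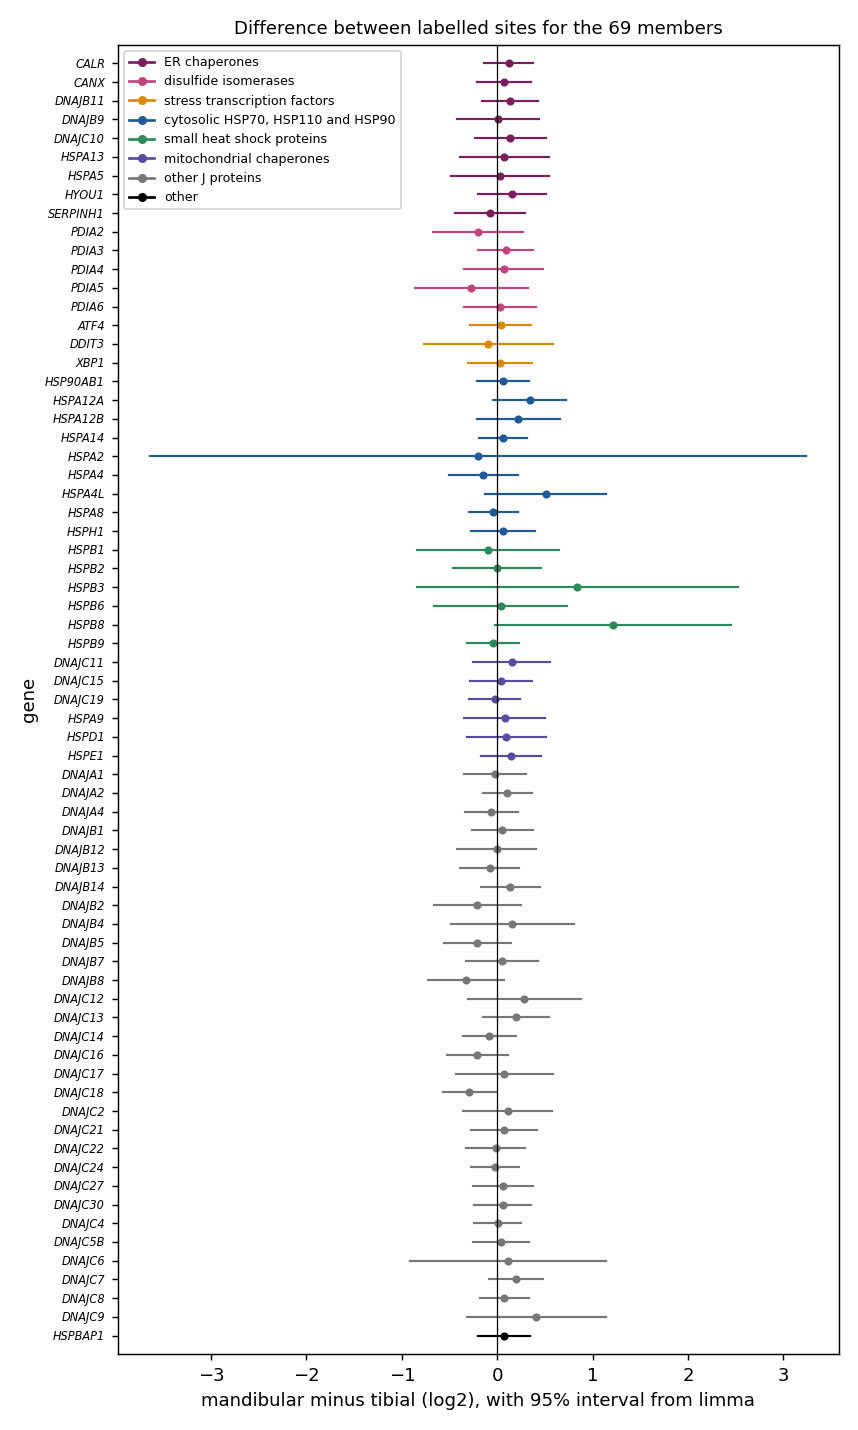
Difference in level, mandibular minus tibial on the log2 scale, for the 69 genes, with points for the estimate and lines for the 95% interval from limma, coloured by role. Most intervals are narrow and cross 0, DNAJC18 alone lies wholly to the tibial side, from -0.57 to -0.01, and HSPA2 is by far the least certain, from -3.64 to 3.23.

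Over the 6 arrays, whatever their label, most chaperone genes held a steady level and a small set did not. The range, the highest minus the lowest array, had a median of 0.47 over the members and 0.51 over all named genes. It was at least 1 log2 unit for 9 members (13.0%, against 14.9% of named genes), so the members as a whole were about as variable as other genes. The 9 were HSPA2, HSPB3, HSPB8, DNAJC6, HSPA4L, DNAJC9, DDIT3, PDIA5 and HSPB1. By role they comprised 3 of 6 small heat shock proteins, 2 of 9 cytosolic HSP70, HSP110 and HSP90 genes, 2 of 30 other J proteins, 1 of 5 disulfide isomerases and 1 of 3 stress transcription factors. No ER chaperone (0 of 9) and no mitochondrial chaperone (0 of 6) reached that range. With 14.9% of named genes there, counts of 0 in groups this small do not set either role apart. The count stayed between 6 and 9 when any single array was left out.

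**Figure D2:**
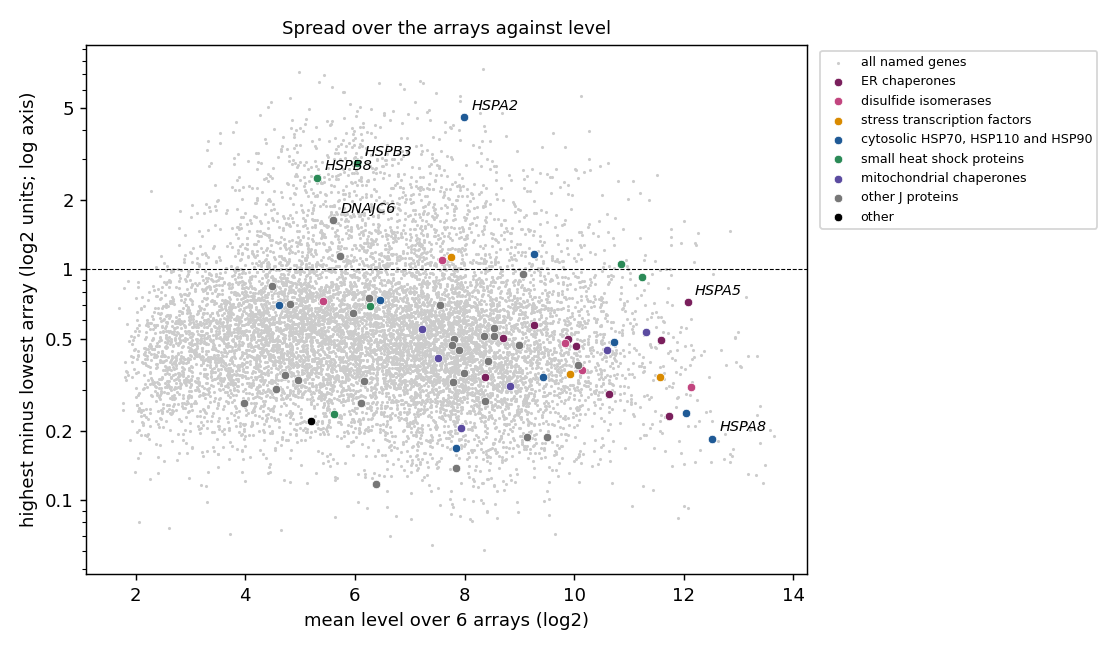
Range over the 6 arrays (highest minus lowest, log axis) against mean level for all 10875 named genes in grey and the members in colour by role. The dashed line marks a range of 1, which 9 members reach, with HSPA2 at 4.57, HSPB3 at 2.89 and HSPB8 at 2.49, while HSPA8 lies at 0.18.

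HSPA2 varied most. It encodes an HSP70 protein best known from the testis, where it is needed for sperm development, and it measured 6.12, 10.69 and 6.87 on mandibular 1, 2 and 3 and 10.43, 7.36 and 6.50 on tibial 1, 2 and 3. The arrays labelled mandibular 2 and tibial 1 stood 3.07 above the next, so each site had 1 array at a high level and 2 at a low one, and the sites overlapped fully. The range of 4.57 is a 23.8-fold span. The mandibular mean was 7.89 ± 2.45 (SD, n = 3). The tibial mean was 8.10 ± 2.06 (SD, n = 3), and the difference was -0.20 (SE 1.44). Without the arrays labelled mandibular 2 and tibial 3 the difference was -2.40 (unadjusted p = 0.0494, adjusted p = 0.524 in limma). Single omissions moved it from -1.60, without mandibular 2, to 0.96, without tibial 1.

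The other cytosolic HSP70 genes were far steadier. HSPA8, the constitutive HSP70 of the cytosol, measured 12.42, 12.49 and 12.56 in mandibular and 12.50, 12.50 and 12.61 in tibial cultures, a difference of -0.04 (SE 0.11). Its second probe set gave -0.04 as well, with a range of 0.18 on both. HSP90AB1, the constitutive HSP90, measured 12.04, 11.99 and 12.18 against 11.95, 11.98 and 12.10. These housekeeping chaperones held nearly the same level on every array, with ranges of 0.18 and 0.24. HSPH1, an HSP110 protein that exchanges nucleotide on HSP70, measured 9.30, 9.50 and 9.57 against 9.59, 9.25 and 9.35, with no order by site. HSPA4, of the same family, ranged over 0.48 and HSPA14, an HSP70 bound to ribosomes, over 0.17.

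HSPA4L, another HSP110-type gene, was lower on 2 of the 3 tibial arrays. It measured 9.70, 9.39 and 9.47 on the mandibular arrays and 8.92, 8.54 and 9.58 on the tibial arrays. Only tibial 3 overlapped with the mandibular values. The mandibular mean was 9.52 ± 0.16 and the tibial mean 9.01 ± 0.53 (SD, n = 3 each), which differed by 0.51 (SE 0.27), and by 0.79 without tibial 3 (adjusted p = 0.265 in limma). Without tibial 2 the difference was 0.27, and without mandibular 2 and tibial 3 it was 0.86 (adjusted p = 0.214 in limma). HSPA12A, a distant HSP70 relative, was the member without overlap on the mandibular side, at 6.47, 6.92 and 6.50 against 6.42, 6.27 and 6.18. Its difference was 0.34 (SE 0.16), and the gap between the closest arrays of the sites was small beside the spread within them. The difference was 0.19 without mandibular 2 and 0.14 without mandibular 2 and tibial 3.

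The small heat shock proteins were the most uneven group, with a median range of 0.99. HSPB8, which works with the cochaperone BAG3 to send misfolded proteins to autophagy, measured 6.24, 5.79 and 5.71 in mandibular and 4.45, 3.75 and 5.91 in tibial cultures. The arrays labelled tibial 1 and tibial 2 stood 1.255 or more below all others, and tibial 3 lay among the mandibular arrays. Those low readings are under 5 and may be at background, so the size of the HSPB8 difference is uncertain. The mandibular mean was 5.91 ± 0.29 and the tibial mean 4.70 ± 1.102 (SD, n = 3 each), which differed by 1.21 (SE 0.52) with an unadjusted p of 0.054 in limma. It was 1.81 without tibial 3 (adjusted p = 0.108) and 1.87 without mandibular 2 and tibial 3 (adjusted p = 0.0911 in limma), not called in either, and 0.73 without tibial 2. BAG3 itself measured 9.75, 9.58 and 9.99 against 9.20, 9.76 and 9.94, lowest on tibial 1.

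HSPB3, a small heat shock protein of muscle, was arranged in part like HSPB8. It measured 7.57, 5.52 and 6.29 in mandibular and 5.26, 4.68 and 6.92 in tibial cultures. Here mandibular 2 lay with tibial 1 and tibial 2 at the low end, and tibial 3 with mandibular 1 and mandibular 3 at the high end. The difference was 0.84 (SE 0.70), and 1.96 without mandibular 2 and tibial 3 (adjusted p = 0.193 in limma). It was 0.28 without mandibular 1 and 0.37 without tibial 2. The HSPB3 reading on tibial 2 is under 5 and may be at background, so the size of its difference is uncertain. HSPB2, its partner in muscle, did not share the pattern, at 6.23, 6.37 and 6.22 against 6.69, 5.99 and 6.16.

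HSPB1 (HSP27), an actin-binding small heat shock protein of stressed and contractile cells, ran the opposite way. It measured 10.38, 11.43 and 10.60 in mandibular and 11.23, 10.95 and 10.52 in tibial cultures. Its order over the arrays was that of HSPA2: mandibular 2, tibial 1 and tibial 2 were the highest, and mandibular 3, tibial 3 and mandibular 1 the lowest. The difference of -0.10 (SE 0.31) became -0.60 without mandibular 2 and tibial 3 (unadjusted p = 0.0241, adjusted p = 0.369 in limma). HSPB6, a small heat shock protein of smooth muscle, was high on 1 array of each site instead, at 11.75, 11.02 and 10.999 against 11.71, 11.14 and 10.83. CRYAB, the αB-crystallin gene that lies beside HSPB2 in the RefSeq table and was chosen here after its values were seen, measured 9.78, 11.10 and 10.35 against 11.20, 8.56 and 10.06. It was high on mandibular 2 and tibial 1, the arrays where HSPA2 was high, and its difference was 0.47 (SE 0.67). HSPB9, a testis gene, was steady between 5.47 and 5.704.

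**Figure D3:**
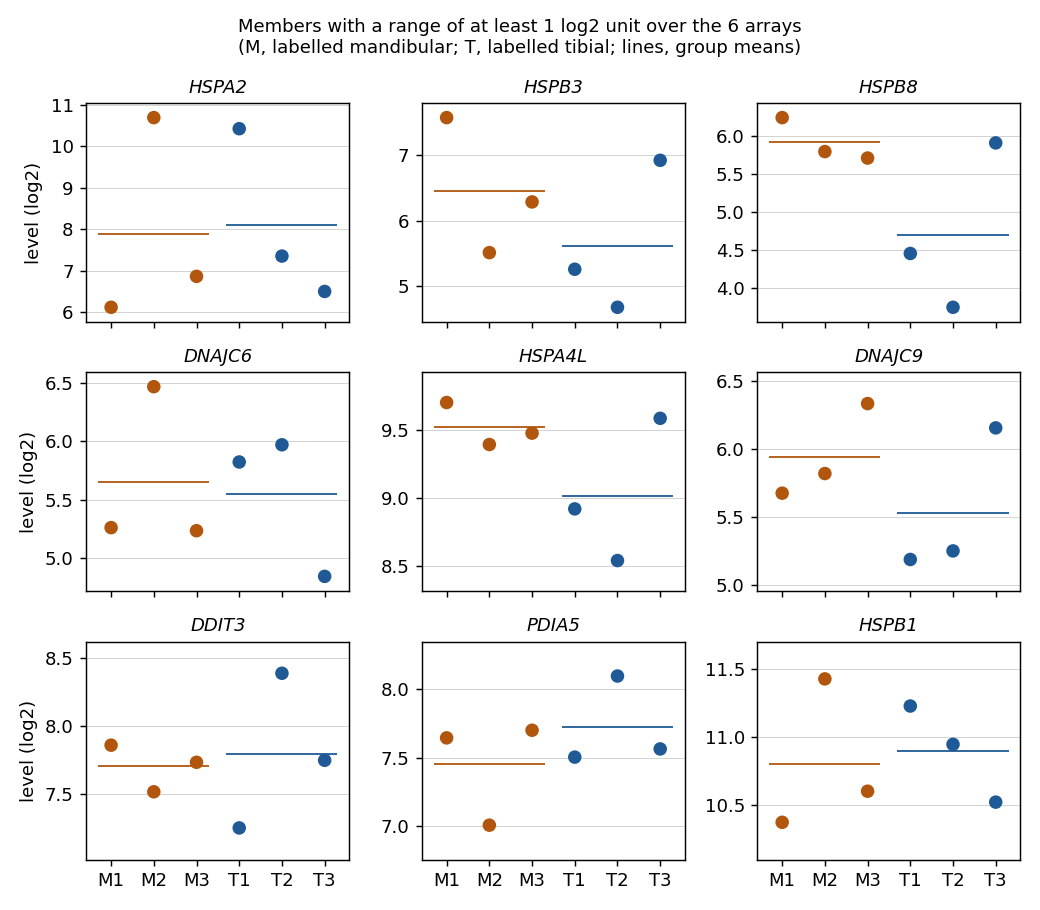
Level on each array (log2) of the 9 members with a range of at least 1, with orange points for arrays labelled mandibular (M), blue for those labelled tibial (T) and lines for group means. HSPB8 and HSPA4L are low only on T1 and T2, HSPA2 is high on M2 and T1, and DDIT3 and PDIA5 peak on T2.

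In the ER lumen, chaperone levels moved mostly together. Their median range was 0.49, against 0.51 over all named genes. In bins of mean level starting at 8 to 12, named genes had median ranges of 0.32 to 0.45, so these chaperones were not steadier than other genes. HSPA5, the HSP70 of the ER and a regulator of its stress sensors, measured 12.14, 11.85 and 12.26 in mandibular and 11.64, 12.37 and 12.16 in tibial cultures. Both its lowest and its highest value came from tibial arrays, and the difference was 0.03 (SE 0.22). HYOU1, which exchanges nucleotide on HSPA5, measured 10.18, 9.97 and 10.20 against 9.74, 10.16 and 9.99, a difference of 0.15 (SE 0.15). CALR measured 11.80, 11.71 and 11.85 against 11.61, 11.63 and 11.76, a difference of 0.12 (SE 0.11). The related lectin CANX measured 10.64, 10.62 and 10.74 against 10.46, 10.69 and 10.64. All of these genes were lowest on tibial 1, by amounts under 1 log2 unit.

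J proteins of the ER followed. DNAJB9 (ERdj4), which returns HSPA5 to the stress sensor IRE1, measured 8.98, 8.50 and 8.66 against 8.48, 8.94 and 8.70. DNAJB11, which serves HSPA5 in folding, ranged from 8.16 to 8.50, and DNAJC10, a J protein that also reduces disulfides, from 9.55 to 10.05. These were again lowest on tibial 1, as was HSPA13, an HSP70-like protein of microsomes. Of the 9 ER chaperones, 8 had their lowest level on that array, where 26.8% of named genes did, and 32.4% of those with a mean level of at least 5. The median deviation of the 9 genes there, from each gene's own mean over the arrays, was -0.23, against -0.01 over all named genes, and all 9 lay below their own mean, as 52.3% of named genes did. Over all 69 members, 23 (33.3%) were lowest on tibial 1. When limma weighted arrays by how closely they followed the fit, tibial 1 had the lowest weight, 0.53 against 0.94 to 1.63 for the others. It was also the highest array for 22.6% of named genes.

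SERPINH1, the collagen chaperone, was the exception among them. It measured 11.60, 11.44 and 11.57 in mandibular and 11.56, 11.89 and 11.40 in tibial cultures, highest on tibial 2 and lowest on tibial 3. The difference was -0.08 (SE 0.15). Of 14 measured collagen-modifying and collagen-export genes of the secretory pathway, 10 were also highest on tibial 2, among them the prolyl hydroxylase subunit gene P4HA1 at 11.43 and FKBP10 at 11.92. Of all named genes 16.5% were highest there. None of the 14 passed between sites, and their median difference was -0.12, with 2 of 14 means higher in mandibular cultures. The lysyl hydroxylase gene PLOD2 was high on tibial 2 at 11.19 and on mandibular 2 at 11.49, and between 10.03 and 10.75 elsewhere.

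Disulfide isomerases were low on mandibular 2 as well as on tibial 1. On tibial 1, 4 of 5 lay below their own mean, as did 52.3% of named genes, with a median deviation of -0.19. ER chaperones lay below theirs on mandibular 2 too, for 8 of 9 genes, with a median deviation of -0.04. PDIA3 (ERp57), which works with CALR and CANX on glycoproteins, measured 12.20, 12.08 and 12.24 against 11.94, 12.14 and 12.19. PDIA4 measured 10.03, 9.55 and 10.02 against 9.62, 9.86 and 9.93, and PDIA6 10.28, 9.93 and 10.29 against 9.94, 10.27 and 10.20. Both were low on mandibular 2 and tibial 1 and even on the other arrays. Of the 5 isomerases, 4 were lowest on mandibular 2, where 15.0% of named genes were, and all 5 lay below their own mean there, as did 54.4% of named genes, with a median deviation of -0.28. PDIA5 varied most, at 7.64, 7.004 and 7.70 against 7.50, 8.10 and 7.56, with a difference of -0.27 (SE 0.25). That difference was -0.049 without mandibular 2 and -0.084 without tibial 2. PDIA2, a pancreatic isomerase, was low throughout, between 4.96 and 5.69.

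The stress transcription factors did not separate the sites. XBP1 measured 10.01, 9.81 and 10.02 against 9.70, 10.05 and 9.9985, a difference of 0.03 (SE 0.14). These are levels of the whole transcript, since no probe set was tied to its spliced form. ATF4, which is controlled largely at translation, measured 11.58, 11.46 and 11.72 against 11.38, 11.67 and 11.60. DDIT3 (CHOP), a target of ATF4 linked to cell death under lasting stress, had a wider range of 1.13. It measured 7.86, 7.52 and 7.73 in mandibular and 7.25, 8.39 and 7.75 in tibial cultures, so that its extremes were tibial 1 and tibial 2, and the difference was -0.09 (SE 0.28). All 3 factors were lowest on tibial 1.

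**Figure D4:**
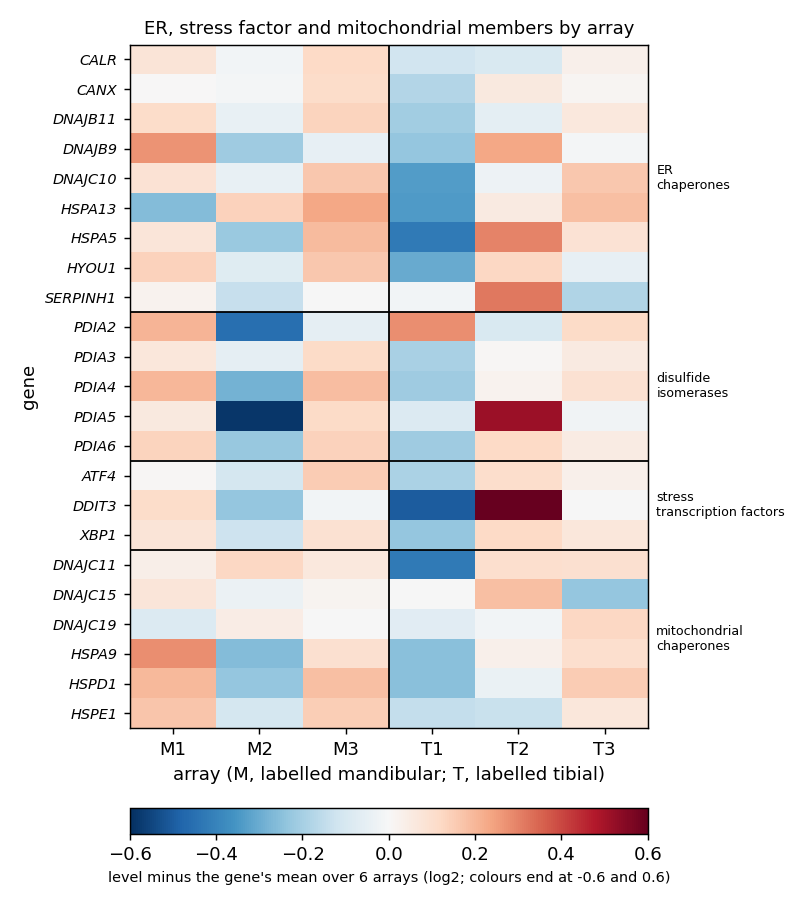
Level on each array minus the gene's mean over the 6 arrays (log2, colours end at -0.6 and 0.6) for the ER chaperones, disulfide isomerases, stress transcription factors and mitochondrial chaperones. Blue cells gather on T1, where 8 of 9 ER chaperones and all 3 factors are lowest. They also gather on M2, where 4 of 5 isomerases are lowest, though 4 of 5 lie below their own mean on T1 too. DDIT3 and PDIA5 are darkest red on T2.

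Other genes of ER stress, listed by pathway, likewise gave no called difference. Of 29 measured sensors, degradation factors and targets, 0 passed the adjusted test, 16 had a higher mean in mandibular cultures and 13 had a lower one, and the median difference was 0.02. ATF6, the membrane-bound stress factor, was the only one of the 29 at an unadjusted p under 0.05, as were 3.03% of all probe sets. It measured 11.91, 11.78 and 11.97 in mandibular and 11.63, 11.18 and 10.98 in tibial cultures, without overlap, a difference of 0.62 (SE 0.18, unadjusted p = 0.0123, adjusted p = 0.9995 in limma). The lowest ATF6 level was on tibial 3, the array that lay with mandibular arrays on positional genes, and without mandibular 2 and tibial 3 the difference was 0.54. ERO1B, an oxidase that recharges the isomerases, also did not overlap, with a difference of 0.28 (SE 0.13). These were the only 2 of the 29 without overlap, where 6.92% of all probe sets did not overlap. TXNDC12, an ER thioredoxin, differed by -0.68 (SE 0.29), with overlap.

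The integrated stress response list, the targets and regulators around ATF4, had 0 of 19 measured genes called, with 10 means higher in mandibular cultures and 9 lower. Of these genes, 13 were lowest on tibial 1 and 8 highest on tibial 2, as DDIT3 was. Of all named genes, 26.8% were lowest on tibial 1 and 16.5% highest on tibial 2. Among named genes with a mean level of at least 5, 32.4% were lowest on tibial 1. TRIB3, a pseudokinase induced by DDIT3 and ATF4, measured 8.71, 8.39 and 8.62 against 8.44, 9.06 and 8.65. SESN2, a stress-induced inhibitor of growth signalling, measured 9.95, 9.35 and 9.92 against 9.18, 10.27 and 10.05, and CHAC1, which degrades glutathione, was lowest on tibial 1 at 9.93 and highest on tibial 2 at 10.94. For each of the 3 genes, tibial 1 and tibial 2 differed more than the site means did. EIF2AK2, a kinase of the response that interferon also induces, measured 9.10 on mandibular 2 and between 7.26 and 8.03 elsewhere.

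Mitochondrial chaperones had ranges from 0.21 to 0.55, with a median of 0.43, against a median of 0.51 over all named genes. HSPA9 (mortalin), the HSP70 of the matrix, measured 11.59, 11.06 and 11.41 against 11.06, 11.35 and 11.42. HSPD1 (HSP60) measured 10.79, 10.36 and 10.77 against 10.34, 10.56 and 10.74, and HSPE1 (HSP10), its lid, 9.002, 8.73 and 8.98 against 8.69, 8.70 and 8.90. HSPD1 and HSPE1 are neighbours in the RefSeq table. On both, mandibular 1, mandibular 3 and tibial 3 were the highest arrays and tibial 1 the lowest, within ranges of 0.45 and 0.31. The differences were 0.08 (SE 0.18), 0.09 (SE 0.17) and 0.14 (SE 0.13). The CCT chaperonin and prefoldin fold actin and tubulin in the cytosol. Their 10 measured genes were all lowest on tibial 1, with a median deviation there of -0.24, and none was called between sites. Of named genes with a mean level of at least 5, 32.4% were lowest on that array.

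**Figure D5:**
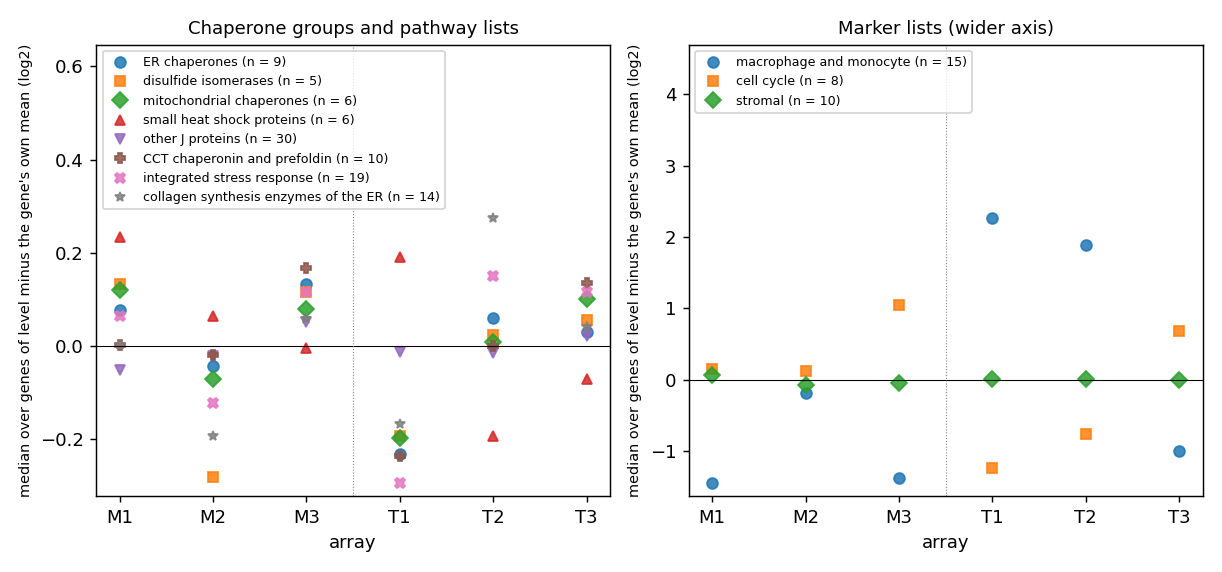
Median over the genes of a group of the level minus each gene's own mean (log2) on each array, for chaperone groups and pathway lists at left and marker lists at right on a wider axis. ER and mitochondrial chaperones, the CCT and prefoldin genes and the integrated stress response lie lowest on T1, at -0.23 for ER chaperones, where the macrophage list stands highest at 2.26 and the cell cycle list lowest at -1.24.

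The smallest p-value among the members belonged to a J protein outside the groups described so far. DNAJC18, a membrane-bound J protein, measured 7.58, 7.68 and 7.59 in mandibular and 7.81, 8.05 and 7.88 in tibial cultures. All tibial values exceeded all mandibular ones, including those of tibial 3 and mandibular 2. The mandibular mean was 7.62 ± 0.06 and the tibial mean 7.91 ± 0.13 (SD, n = 3 each), which differed by -0.29 (SE 0.12, unadjusted p = 0.0419, adjusted p = 0.9995 in limma). In single omissions it lay between -0.35 and -0.22. DNAJB8, a testis gene, was the other tibial member without overlap, at 4.73, 4.61 and 4.63 against 5.32, 4.76 and 4.88, with a mean level under 5. Its difference of -0.33 was -0.16 without tibial 1.

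By the order of p, DNAJC7, DNAJC16, DNAJB5 and DNAJC13 came next among the J proteins. DNAJC7, which binds both HSP70 and HSP90, measured 8.67, 8.41 and 8.52 against 8.27, 8.33 and 8.42, a difference of 0.20 (SE 0.12). DNAJC16 and DNAJB5 each differed by -0.21, with SE 0.14 and 0.15. DNAJC13, an endosomal protein, differed by 0.20 (SE 0.14). Without mandibular 2 and tibial 3, DNAJB5 differed by -0.35 and DNAJC13 by 0.11. Every one of these overlapped between sites and none was called.

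DNAJC9 and DNAJC6 were the variable J proteins. DNAJC9, which binds histones and acts with them as DNA is copied, measured 5.68, 5.82 and 6.33 in mandibular and 5.19, 5.25 and 6.15 in tibial cultures, a difference of 0.41 (SE 0.30). It was low on tibial 1 and tibial 2 and high on mandibular 3 and tibial 3. The difference was 0.22 without mandibular 3, 0.24 without tibial 1, 0.72 without tibial 3 and 0.78 without mandibular 2 and tibial 3. Levels of 8 measured cell cycle genes, of 16 listed, ran the same way, with list means of 7.35, 7.37 and 8.22 against 5.93, 6.43 and 7.86, and their part in the result was not tested. DNAJC6 (auxilin), which uncoats clathrin vesicles with HSPA8, measured 5.26, 6.47 and 5.23 against 5.82, 5.97 and 4.84. It was highest on mandibular 2, tibial 2 and tibial 1, as HSPA2 and HSPB1 were.

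The stress-induced J proteins of the cytosol were level. DNAJB1 (HSP40), a standard marker of the heat shock response, measured 7.94, 7.88 and 8.24 against 8.02, 7.92 and 7.96, and DNAJA1 measured 10.03, 10.03 and 10.14 against 9.91, 10.08 and 10.29. DNAJB4, an HSP40 relative chosen here after its values were seen, was 9.71 on mandibular 2 and between 8.75 and 9.28 on the other arrays. Of 28 measured genes for heat shock factors and chaperone cofactors, 0 were called. Of these, 18 were higher in mandibular cultures, with a median difference of 0.04. The lowest array was tibial 1 for 19 of the 28, as it was for 26.8% of named genes. HSF1, the main heat shock factor, ranged from 8.68 to 9.002. BAG1, an HSP70 exchange factor, was the only gene of those 28 without overlap, where 6.92% of all probe sets did not overlap. The BAG1 difference was 0.24 (SE 0.10). The 32 members not taken by the naming rule differed by -0.21 to 0.28, with ranges from 0.12 to 0.96.

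Genes of other cells moved with some of these patterns. Of 19 listed macrophage and monocyte genes, 15 were measured. Their mean level lay between 4.82 and 6.16 on the mandibular arrays, and at 8.45, 7.94 and 5.38 on tibial 1, 2 and 3. HSPB8, HSPA4L, HSPB3 and DNAJC9 were lowest on tibial 1 and tibial 2, where that list was highest. The part of macrophages in these results was not tested, and in such bulk cultures fewer cells of a type and less RNA per cell cannot be told apart. Of 6 listed skeletal muscle genes, 4 were measured, with list means of 5.18, 5.58 and 5.39 on the mandibular arrays and 5.74, 5.16 and 5.02 on the tibial arrays. ACTA1, skeletal muscle actin, read 8.1999 on mandibular 2, 6.91 on tibial 1 and 5.48 to 6.002 elsewhere. MYOD1 and MYOG, the factors that define the lineage, lay between 4.68 and 5.71. The other genes of the list did not share the high ACTA1 level on mandibular 2. MYH1 was lowest there, at 3.97, and highest on tibial 1, at 5.34, and MYOD1 was also lowest on mandibular 2. HSPA2, HSPB1 and CRYAB were high on mandibular 2 and tibial 1, as ACTA1 was, and the part of muscle genes in this was not tested. Stromal markers, 10 of 12 listed, had list means from 10.84 to 11.08 on the 6 arrays, but 5 of the 10 had a range of at least 1, among them DCN from 9.99 to 11.98 and NT5E from 7.05 to 9.13. Lists of 5 measured lymphocyte and 4 measured endothelial genes had means between 4.28 and 4.88 on every array.

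Without the arrays labelled mandibular 2 and tibial 3, which leaves 2 against 2, no member was called either, where 195 of 27558 probe sets (0.708%) were. At an unadjusted p under 0.05 there were then 8 members, 11.6% against 9.5% of all probe sets, and 28 without overlap, 40.6% against 37.3%. HSPB8, HSPB3, HSPA4L, DNAJC9 and DNAJC12, a cochaperone of aromatic amino acid hydroxylases, had the higher means in mandibular cultures, with DNAJC12 under 5 on every array. HSPA2, DNAJC6 and HSPB1 had the higher means in tibial cultures. Of these 8, 7 are among the 9 members of wide range. DNAJC18 differed by -0.34 there and no longer had an unadjusted p under 0.05 (0.107 in limma). ER chaperones differed by -0.14 (SERPINH1) to 0.31 (DNAJC10), with DNAJB11 at 0.25, HYOU1 at 0.24, and CALR and HSPA5 at 0.20.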

How the data were processed

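Each of the 6 cultures was measured on 1 microarray. The authors deposited log2 levels. Per the submitters' processing notes the tools were RMA, Transcriptome Analysis Console 3.0 and Affymetrix Expression Console. RMA gives the arrays a common distribution, which removes any change that moves every gene alike. Its settings and the genome build are not stated in the labels, so no coordinates are printed. The platform annotation gave 1 symbol to 13157 of 27558 probe sets, several to 523 and none to 13878. Placeholder symbols were set aside. The site difference (mandibular minus tibial) was fitted with limma 3.58.1 under R 4.3.3, two-sided and unpaired, and p-values were adjusted by the Benjamini-Hochberg method across the 27558 probe sets, with calls at 0.05. The fit was tested on simulated data with large changes and the same spread for every probe set. That test cannot show whether the smaller differences and uneven spreads seen here would be called.

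The members, lists and tests were chosen with earlier results of these data known. Genes named by rule were a fixed set of core chaperones, the 5 members of smallest p in each direction and the 8 of widest range. The other genes given with values were chosen after their values were seen. Alternatives were array centring, a replicate block, array weights, trend and robust moderation, a filter on mean level at 5, the mean of a gene's probe sets, and omission of arrays. Sequences were not used here.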

Additional observations from a re-analysis of the deposited data

How the results depend on the processing

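No member was called at an adjusted p under 0.05 in limma under any alternative, and the single omissions called 0 to 2 of all 27558 probe sets, 1 without tibial 1 and 2 without tibial 3, against 195 without both mandibular 2 and tibial 3. Members at an unadjusted p under 0.05 numbered 2 with the replicate block (5.48% of all probe sets), 2 with array weights (4.07%), 0 to 4 in single omissions and 8 without both arrays. The 4 arose without tibial 3, where 7.51% of all probe sets passed, and the count was 0 without any 1 of the 3 mandibular arrays. Members without overlap numbered 5 with centred arrays (7.19%), 3 to 15 in single omissions and 28 without both arrays. The cause was not tested, apart from the omissions, where fewer arrays make overlap rarer among all probe sets too (12.7% to 21.7% with 1 array left out). With array weights the difference was -0.072 for DNAJB9, -0.045 for HSPA5, -0.0086 for XBP1, 0.10 for HSPA2, 0.083 for HSPB2 and -0.054 for CHAC1, each opposite in sign to the value reported. With centred arrays HSPB2 and DNAJA1 turned to 0.019 and 0.00067. In omissions of any 1 array, or of mandibular 2 with tibial 3, the mandibular minus tibial difference (log2) turned sign for 32 of the 60 genes named with a difference, none of them called. Over these omissions it ran for CANX from -0.0025 to 0.12, DNAJB9 from -0.13 to 0.12, HSPA5 from -0.18 to 0.20, SERPINH1 from -0.19 to 0.0599, PDIA4 from -0.023 to 0.29, PDIA6 from -0.068 to 0.18, ATF4 from -0.049 to 0.12 and DDIT3 from -0.36 to 0.20. It ran for XBP1 from -0.079 to 0.14, HSPA2 from -2.40 to 0.96, HSPH1 from -0.012 to 0.16, HSPB1 from -0.60 to 0.12, HSPB2 from -0.15 to 0.20, HSPB6 from -0.21 to 0.27, HSPA9 from -0.042 to 0.30 and HSPD1 from -0.0093 to 0.33. It spanned for DNAJA1 from -0.12 to 0.094, DNAJB1 from -0.054 to 0.12, DNAJC6 from -0.65 to 0.32, BAG3 from -0.074 to 0.39, CRYAB from -0.22 to 1.101, SESN2 from -0.42 to 0.21, CHAC1 from -0.24 to 0.27 and TRIB3 from -0.28 to 0.026. It was for P4HA1 from -0.63 to 0.013, PLOD2 from -0.87 to 0.14, FKBP10 from -0.26 to 0.023, DNAJB4 from -0.23 to 0.36, HSPA4 from -0.27 to 0.019, HSPA13 from -0.079 to 0.22, HSPB9 from -0.094 to 0.021 and HSF1 from -0.12 to 0.081. The other 28 of the 60 kept their direction in every alternative. Deviations of same-numbered arrays correlated at -0.03, 0.21 and 0.47, which neither establishes nor excludes that the numbers mark pigs, so the unpaired fit was kept. With 3 arrays a site, a difference smaller than its 95% half-width (median 0.36 over the members) could not be told from 0. A call after adjustment needed more than that. DNAJC18 and ATF6 exceeded their half-widths, yet their adjusted p was 0.9995 in limma. The files hold no detection measure for dim probe sets. The planned search of promoter motifs was not run.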
